A study of Mus musculus with 6 samples.

Results

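The Bcl-2 family sets whether a cell lives or dies at the mitochondrion, and 10 of its genes were followed here in mouse blood-forming progenitors that lack or carry a working NIK kinase. The genes were taken by role: the anti-apoptotic Bcl2, Bcl2l1 (Bcl-xL), Mcl1 and Bcl2l2 (Bcl-w), the effectors Bax and Bak1, and the BH3-only genes Bid, Bcl2l11 (Bim), Bmf and Bbc3 (Puma). Every non-control probe that the scanner files name for one of them was used, which gave 14 of the 55681 probes on the array and 10 of its 34821 gene names. Of the 14 probes, 13 gave a signal well above background on 3 or more of the 6 arrays and entered the test, so that each gene had a tested probe.

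Total RNA came from freshly sorted LSK cells, a marrow fraction without lineage markers but with Sca-1 and c-Kit on its surface, in which stem cells and early progenitors are found. The NIKaly/aly samples, numbered 2, 4 and 6, came from mice that carry the aly allele of NIK on both chromosomes, a loss-of-function point mutation. The wild-type samples, numbered 1, 3 and 5, came from mice with normal NIK. The mutation is carried by the whole animal and not by LSK cells alone, and neither age nor sex is given in the sources used here. Each sample was labelled with Cy3 and hybridised to 1 array of a single slide, and the study asked what a defective NIK does to alternative NF-kB signalling in these cells.

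In the intrinsic pathway of apoptosis, BAX and BAK form pores in the outer mitochondrial membrane, cytochrome c leaves through them, and caspases are switched on. BCL-2, BCL-XL, MCL-1 and BCL-W hold the effectors and the BH3-only proteins in check, and the BH3-only proteins, raised or switched on by stress, growth factor loss or DNA damage, release that hold. Mouse hematopoietic stem cells are known to depend on MCL-1, erythroid cells on BCL-XL in the late steps of their maturation and mature lymphocytes on BCL-2, and Bcl2l1 is a known transcriptional target of NF-kB.

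Levels are given as log2 of the processed signal minus the log2 of that array's 75th percentile, so a level of 1 is 2 times that percentile. A probe's level is not compared with that of another probe, since probes differ in how well they bind. The 75th percentile of the signal lay between 50.8 and 201 on the NIKaly/aly arrays and between 47.0 and 225 on the wild-type arrays, and the share of the 59305 non-control spots that were well above background ran from 33.1% to 45.6%. Across the tested probes, arrays with consecutive sample numbers, 1 of each genotype, correlated at 0.974 to 0.989 (Pearson's r across probes, which are not independent replicates), against 0.934 to 0.974 within a genotype. The labels do not call these samples pairs. The LSK markers Kit and Ly6a (Sca-1) were well above background on all 6 arrays, and so were genes of mature cells that the sort is meant to leave out, such as S100a9 of neutrophils and Cd79a of B cells. Map3k14, which encodes NIK, read 1.60, 2.53 and 2.14 in NIKaly/aly 2, 4 and 6, against 0.73, 2.54 and 2.06 in wild type 1, 3 and 5. Its allele is a point mutation, so this level does not check the labels. Whether each sample is a separate animal is not stated, and p-values here cover only how these 6 samples vary, which may be technical. The scanner software marked NIKaly/aly 6 and wild type 1 for evaluation. Precision is limited by the number of arrays.

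Each value below comes from a 60-base oligonucleotide, and where a probe sits decides which transcripts it can report. The following 3 are shown whole because they read the protein-coding part of the message. The Bcl2 probe lies on chromosome 1 (mm9, minus strand, chr1:108608970-108609029) and starts at base 1838 of its transcript. The dimmer Bcl2l1 probe (minus strand, chr2:152655185-152655244) starts at base 674 of its transcript. The dimmer Bcl2l11 probe (plus strand, chr2:127972893-127983988) spans 11096 genomic bases with its 60, so it joins exons, and it reads through the codons of the BH3 domain, the helix that gives the BH3-only proteins their name. Capitals mark the BH3 core codons, searched as ATNGGNGANGANTT on both strands and found in 2 of the 55681 probe sequences of the array.
Bcl2: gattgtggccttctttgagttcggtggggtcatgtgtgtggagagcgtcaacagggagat
Bcl2l1, dimmer probe: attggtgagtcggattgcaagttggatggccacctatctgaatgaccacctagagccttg
Bcl2l11, dimmer probe: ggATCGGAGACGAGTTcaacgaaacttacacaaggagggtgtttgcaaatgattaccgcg

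For 5 further probes the results turn on, the first 30 bases are given. They show the brighter probes of Bcl2l1 (minus strand, chr2:152606404-152606463) and Bcl2l11 (plus strand, chr2:127954736-127955417), the pair for Mcl1 (plus strand, chr3:95466855-95466914 and chr3:95465543-95465602) and the Bmf probe (minus strand, chr2:118354496-118354555).
Bcl2l1, brighter probe: atagtttgtgtgaaggtgaaagtgcagttc
Bcl2l11, brighter probe: atctcagtgcaatggatcagttggagaatc
Mcl1, brighter probe: gctgcttggaaagatggctctcagcaaaat
Mcl1, dimmer probe: tgcagcttctctagttagaaatgtatttct
Bmf: catgtgtaaatatcctctcatccatcaagt

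No Bcl-2 family gene passed the test between NIKaly/aly and wild-type LSK cells. The log2 differences of the 13 tested probes lay between -0.41 (Bmf) and 0.33 (the dimmer Mcl1 probe), which is 0.752-fold to 1.26-fold. None of the 13 passed the threshold of 0.05 (limma, Benjamini-Hochberg adjusted p = 0.99998 for each), against 0% of the 21217 tested probes. None had an unadjusted p under 0.05 either, against 1.28% of all tested probes, and the smallest was 0.251 for Bmf. By the brightest probe, 4 of the 10 genes read higher and 6 lower in NIKaly/aly, with a median difference of -0.090. Over all tested probes 48.5% read higher and the median was -0.0089. In bulk RNA, fewer cells of a type and less RNA per cell cannot be told apart.

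All 13 of the 95% intervals included 0, and their half-widths ran from 0.73 to 1.72 on the log2 scale. Even the narrowest thus left room for changes of up to 1.66-fold around the estimate, so these arrays do not show that the levels were alike. With consecutive samples as a block, the median residual SD of the member probes was 0.17, against 0.48 without it, and again no member passed (smallest adjusted p = 0.614 in limma), against 0.00943% of all tested probes. In that fit 3 of the 13 had an unadjusted p under 0.05, against 7.05% of all tested probes. They were Bcl2l1, Bak1 and the dimmer Mcl1 probe.

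**Figure D1:**
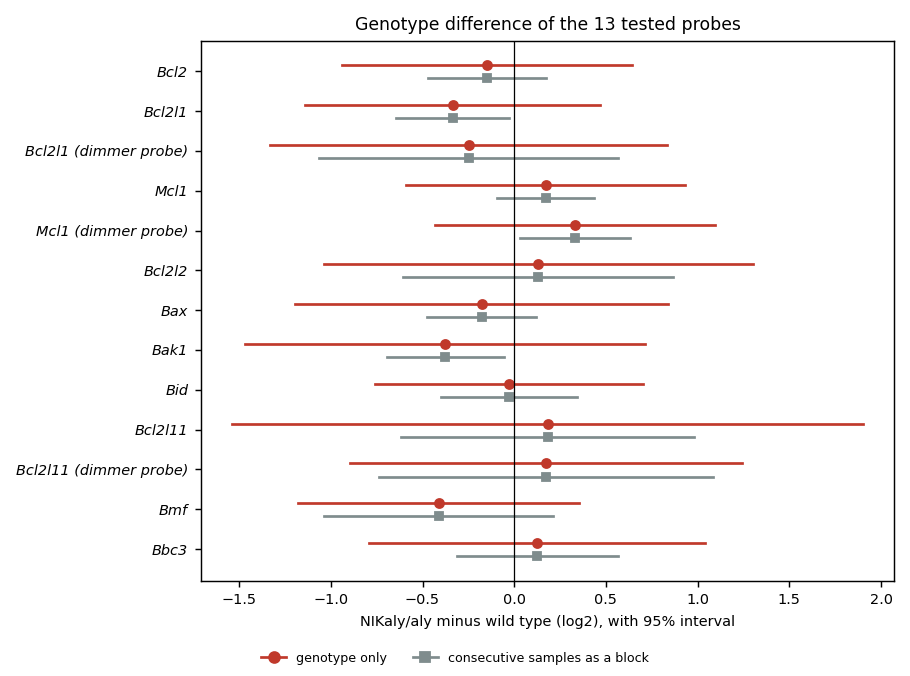
Difference in log2 level, NIKaly/aly minus wild type, for the 13 tested probes, with 95% intervals from limma (n = 3 arrays per genotype), with genotype alone (circles) and with consecutive samples as a block (squares). Every interval with genotype alone spans 0, and with the block those of Bcl2l1, Bak1 and the dimmer Mcl1 probe do not, before any adjustment.

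Among the genes that protect cells, both Mcl1 probes and the brighter of the Bcl2l1 probes kept 1 sign over the consecutive pairs, and Bcl2, Bcl2l2 and the dimmer Bcl2l1 probe did not. Bcl2, the founding survival gene of the family, read 2.99, 3.59 and 3.63 in NIKaly/aly 2, 4 and 6, against 3.04, 4.004 and 3.62 in wild type 1, 3 and 5. The lowest arrays were sample 2 of NIKaly/aly and sample 1 of wild type, so the groups overlapped. The difference was -0.15 ± 0.34 (SE, n = 3 per genotype; 95% interval -0.94 to 0.64). In the pairs 2 with 1, 4 with 3 and 6 with 5 it was -0.051, -0.41 and 0.011, so a single pair carried most of it.

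Bcl2l1 encodes BCL-XL, which guards mitochondria of erythroid and other cells. Its brighter probe read 3.35, 2.69 and 2.54 in NIKaly/aly 2, 4 and 6, against 3.72, 2.87 and 3.004 in wild type 1, 3 and 5. Wild type 1 was the highest array and NIKaly/aly 6 the lowest, and the groups overlapped because NIKaly/aly 2 lay above wild type 3 and 5. The difference was -0.34 ± 0.35 (SE; 95% interval -1.14 to 0.47), and it was negative in all 3 pairs (-0.37, -0.17 and -0.47). With the pairs as a block the unadjusted p was 0.037 and the adjusted p = 0.665 in limma. The dimmer probe read -1.68, -2.03 and -2.05 in NIKaly/aly, against -0.93, -2.03 and -2.06 in wild type, and was not well above background on NIKaly/aly 6 and wild type 5. It differed by -0.25 ± 0.47 (SE), nearly all of it in the pair of samples 2 and 1 (-0.75), and was close to 0 in the other pairs. Being lower in all 3 pairs was shared by 15.7% of all tested probes, and 4 of the 13 member probes were, those of Bcl2l1 (brighter), Bax, Bak1 and Bmf.

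Mcl1 encodes a short-lived survival protein that stem cells need. Its brighter probe read 5.74, 5.84 and 6.29 in NIKaly/aly 2, 4 and 6, against 5.49, 5.70 and 6.17 in wild type 1, 3 and 5. Samples 5 and 6 were the highest on this probe and on the dimmer one, in both genotypes. The brighter probe differed by 0.17 ± 0.33 (SE; 95% interval -0.59 to 0.93). The dimmer probe read 4.41, 4.25 and 4.78 in NIKaly/aly, against 3.96, 3.81 and 4.68 in wild type, a difference of 0.33 ± 0.33 (SE). Both Mcl1 probes were higher in NIKaly/aly in all 3 pairs, by 0.25, 0.14 and 0.12 on the brighter probe and 0.45, 0.44 and 0.11 on the dimmer one. They were the only 2 of the 13 member probes with that pattern, against 13.7% of all tested probes. The dimmer probe had an unadjusted p of 0.034 with the pairs as a block (adjusted p = 0.650 in limma).

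Bcl2l2, which encodes BCL-W, was dim. Its brighter probe read -2.12, -1.01 and -1.45 in NIKaly/aly 2, 4 and 6, against -2.20, -0.89 and -1.87 in wild type 1, 3 and 5, and it was not well above background on NIKaly/aly 6 and wild type 1. The difference was 0.13 ± 0.51 (SE; 95% interval -1.04 to 1.30). The second Bcl2l2 probe, 168 bases further along, was not well above background on any of the 6 arrays and was not tested.

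**Figure D2:**
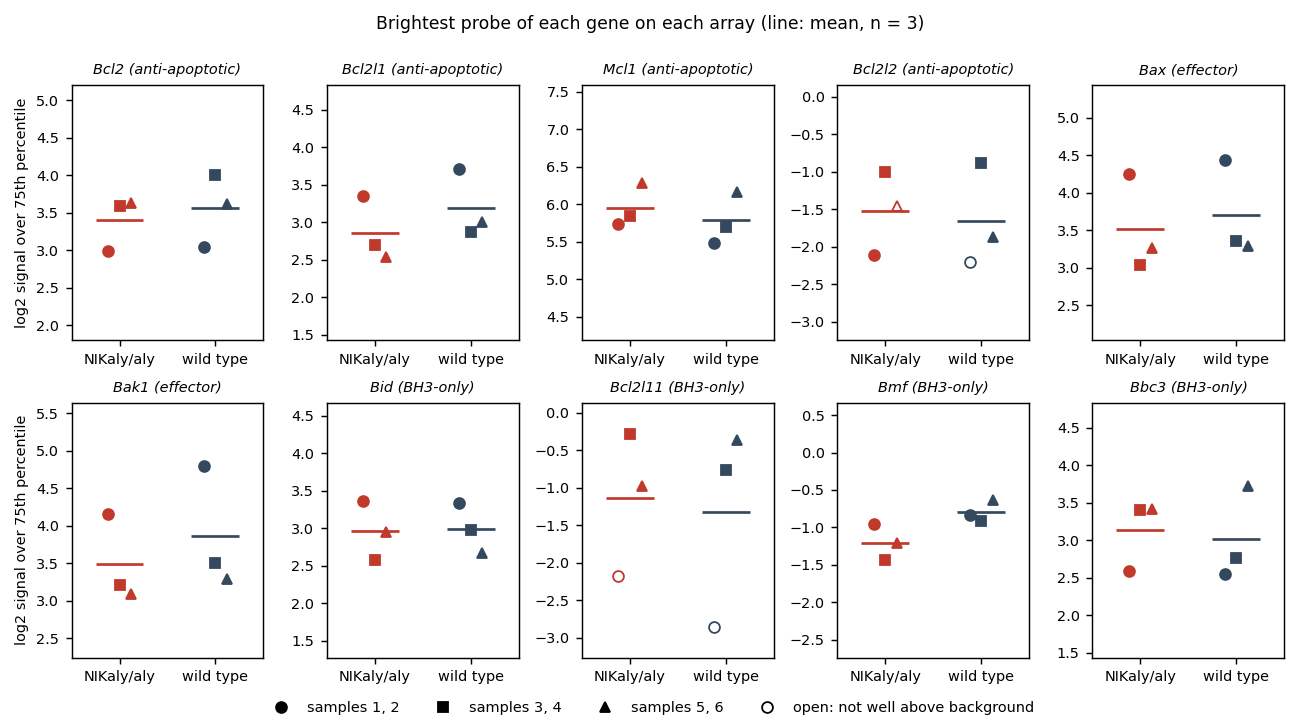
Level of each gene's brightest probe on each array (log2 signal over the array's 75th percentile), NIKaly/aly at the left and wild type at the right of each panel, with the mean of 3 arrays as a line and the shape giving the consecutive samples. Axes differ in position and share a span. Only for Bmf do the 2 groups not overlap, and circles (samples 1 and 2) of both genotypes often lie together.

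Both effectors read lower in NIKaly/aly on average and in every pair, by less than their spread. Bax, whose product moves from the cytosol to mitochondria on activation, read 4.25, 3.04 and 3.27 in NIKaly/aly 2, 4 and 6, against 4.43, 3.36 and 3.30 in wild type 1, 3 and 5. Sample 2 of NIKaly/aly and sample 1 of wild type stood above the other 4 arrays. The difference was -0.18 ± 0.44 (SE; 95% interval -1.20 to 0.84), and -0.18, -0.33 and -0.031 in the 3 pairs.

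Bak1 encodes a protein that sits in the mitochondrial membrane already. It read 4.15, 3.20 and 3.09 in NIKaly/aly 2, 4 and 6, against 4.79, 3.50 and 3.29 in wild type 1, 3 and 5. NIKaly/aly 2 lay above wild type 3 and 5, so the groups overlapped. The difference was -0.38 ± 0.47 (SE; 95% interval -1.47 to 0.71), and -0.64, -0.30 and -0.20 in the 3 pairs. The unadjusted p was 0.026 with the pairs as a block (adjusted p = 0.614 in limma). Without wild type 1 the difference was 0.088 for Bak1 and 0.19 for Bax, and without NIKaly/aly 4 it was 0.063 for Bax. Leaving out 1 array of a consecutive pair leaves its partner in. Without samples 1 and 2 together the differences were -0.18 for Bax and -0.25 for Bak1. These are the means of the remaining pair differences given above, so they are no further check of the direction.

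Of the BH3-only genes, Bmf was the single member whose groups did not overlap, and Bid, Bcl2l11 and Bbc3 had no common direction over the pairs. Bmf encodes a protein that is tied to the cytoskeleton until stress frees it. It read -0.96, -1.44 and -1.21 in NIKaly/aly 2, 4 and 6, against -0.83, -0.91 and -0.63 in wild type 1, 3 and 5. All 3 NIKaly/aly arrays were below all 3 wild-type arrays, as for 2.01% of all tested probes (4.57% in either direction), and the gap between NIKaly/aly 2 and wild type 3 was small. The difference was -0.41 ± 0.33 (SE; 95% interval -1.18 to 0.35), and -0.13, -0.53 and -0.58 in the pairs. In the 20 alternatives run the difference lay between -0.56 and -0.21. As the groups did not overlap, leaving out or weighting arrays could not turn its sign, so the kept sign adds little. No spot was saturated, and the signals of this probe, 64.5, 74.4 and 21.9 on the NIKaly/aly arrays and 26.4, 120 and 51.7 on the wild-type arrays, were low.

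Bid, which links death receptors to mitochondria once caspase-8 has cleaved its product, read 3.37, 2.58 and 2.95 in NIKaly/aly 2, 4 and 6, against 3.33, 2.98 and 2.68 in wild type 1, 3 and 5. The difference of -0.029 ± 0.32 (SE; 95% interval -0.76 to 0.70) was the smallest among the members. Bbc3, a p53 target that encodes PUMA, read 2.59, 3.41 and 3.41 in NIKaly/aly, against 2.54, 2.77 and 3.72 in wild type. The difference was 0.13 ± 0.40 (SE), with 0.050, 0.64 and -0.31 in the pairs, so the pairs did not share a sign.

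Bcl2l11 encodes BIM, which rises when growth factors are withdrawn and limits the number of lymphoid and myeloid cells. Its brighter probe read -2.18, -0.28 and -0.97 in NIKaly/aly 2, 4 and 6, against -2.85, -0.76 and -0.36 in wild type 1, 3 and 5. Samples 1 and 2 were the lowest, and there the probe was not well above background. The difference was 0.18 ± 0.75 (SE; 95% interval -1.54 to 1.90), the least precise of the 13. The probe through the BH3 codons read -1.12, -1.86 and -1.64 in NIKaly/aly, against -2.14, -1.97 and -1.03 in wild type. It differed by 0.17 ± 0.46 (SE), and was well above background on 4 of the 6 arrays.

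Much of the variation between arrays ran along the consecutive samples. Samples 1 and 2 lay both above or both below the other 4 arrays on 9 of the 13 member probes, against 55.9% of all tested probes. They were above for 5 of the 13 (both Bcl2l1 probes, Bax, Bak1 and Bid), against 37.3% of all tested probes. They were below for 4 (Bcl2, Bcl2l2, the brighter Bcl2l11 probe and Bbc3), against 18.6%. The mean of samples 1 and 2 minus that of samples 3 to 6 was 1.20 for Bak1, 1.10 for Bax, 0.76 for Bcl2l1 and 0.55 for Bid, and -0.69 for Bcl2 and -0.76 for Bbc3. No such value is given for the brighter Bcl2l11 probe, which was not well above background on samples 1 and 2, or for Bcl2l2, which was not on sample 1. The genes thus moved in opposite directions between these arrays, in both genotypes. Samples 5 and 6 were both above the other 4 arrays for 3 of the 13 probes, both of Mcl1 and that of Bbc3, against 8.51% of all tested probes. They were both below for 1, the dimmer Bcl2l1 probe, against 20.8%, which made 4 in either direction, against 29.3%. That probe was not well above background on samples 5 and 6. It read -2.06 on sample 5 and -2.05 on sample 6, against -2.03 on samples 3 and 4, so this placement is weak. These sets of samples were seen in the data and are not groups of the study, and no test was made of them.

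Markers of other blood cells also differed between these arrays. The erythroid gene Hbb-b1 read 6.51, 2.47 and 3.18 in NIKaly/aly 2, 4 and 6, against 7.61, 2.48 and 2.90 in wild type 1, 3 and 5. The log2 of the summed level of 6 erythroblast markers ranged from 2.69 to 7.47 in NIKaly/aly and from 2.90 to 8.59 in wild type, with samples 1 and 2 highest. Epb4.2, another erythroblast marker, was left out of the sum for a missing value, and no array had it well above background. For 7 neutrophil markers the sum was 10.22 to 11.97 in NIKaly/aly and 10.08 to 12.78 in wild type. Samples 1 and 2 were highest here too. On average 7 of 7 were lower, at -0.29 to -0.12, each with a larger SE (0.75 to 0.95). Ltf, Mmp8 and Retnlg were lower in all 3 pairs, and the others were not. For 7 B cell markers the sum was 4.08 to 6.24 in NIKaly/aly and 5.08 to 7.19 in wild type, also with samples 1 and 2 highest. Again 7 of 7 were lower, with Pax5 too dim to be tested. On the T cell, macrophage and LSK sums below, samples 1 and 2 were not both highest. For 5 T cell markers the sum was 1.52 to 3.22 in NIKaly/aly and 2.11 to 3.81 in wild type, with 4 of 5 lower. The summed macrophage and monocyte markers did not overlap between genotypes, at 4.34 to 4.69 in NIKaly/aly and 5.11 to 5.80 in wild type. Here 6 of 6 were lower, with C1qa too dim to be tested. Csf1r, the brightest of these markers and so the largest part of their sum, differed by -1.17 ± 0.33 (SE; limma, adjusted p = 0.99998). The summed LSK markers did not overlap either, at 8.28 to 8.40 in NIKaly/aly and 8.01 to 8.18 in wild type, with 4 of 6 higher on average. Cd34, the brightest of them and so the largest part of their sum, differed by 0.31 ± 0.35 (SE). Ly6a went the other way, at 2.94, 2.44 and 1.503 in NIKaly/aly 2, 4 and 6 against 3.67, 2.79 and 2.45 in wild type 1, 3 and 5 (-0.68 ± 0.46, SE), and was lower in all 3 pairs. None of the 6 LSK markers separated the genotypes on its own. Of the 5 tested macrophage and monocyte markers 2 did, Csf1r and Ly86, both lower, against 2.01% of all tested probes in that direction. Emr1, Cd68 and C1qb overlapped between genotypes. Over all tested probes 48.5% read higher on average. The part of these cell types in the members' values was not tested.

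**Figure D3:**
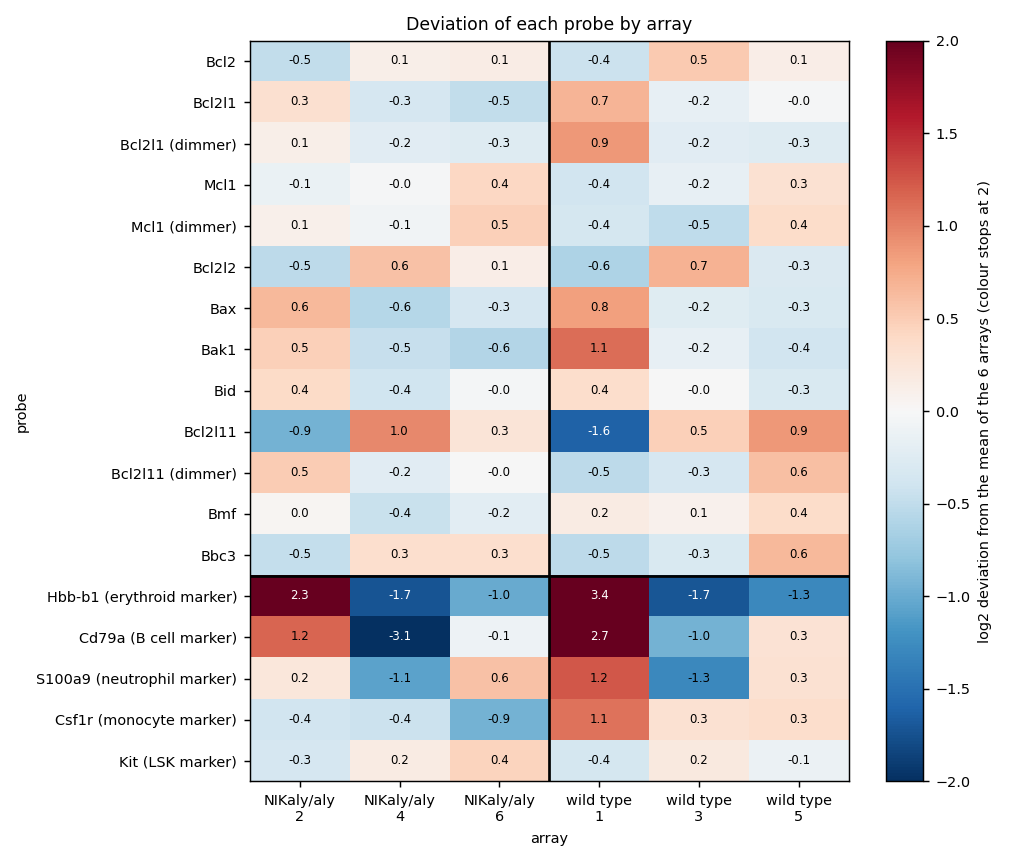
Log2 level of each tested member probe and of 5 marker genes on each array, as deviation from that probe's mean over the 6 arrays (red above, blue below; colour stops at 2). Bax, Bak1, Bid and Bcl2l1 are red on NIKaly/aly 2 and wild type 1, where Hbb-b1 and Cd79a are highest. Bcl2, Bcl2l2, Bbc3 and the brighter Bcl2l11 probe are blue there.

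A pair of probes was available for 4 of the genes. For Mcl1, with probes 1312 bases apart, the brighter minus the dimmer probe stayed between 1.33 and 1.60 in NIKaly/aly and between 1.49 and 1.89 in wild type. Both Mcl1 probes were highest on samples 5 and 6, but the brighter was lowest on wild type 1 and the dimmer on wild type 3. For Bcl2l1, with probes 48781 genomic bases apart, the value stayed between 4.59 and 5.03 in NIKaly/aly and between 4.65 and 5.06 in wild type, although the dimmer probe was not well above background on samples 5 and 6. For Bcl2l11 both probes were well above background only on NIKaly/aly 4, where the value was 1.58, and on wild type 3 and 5, where it was 1.21 and 0.66. On the other 3 arrays at least 1 of its probes was not, so the value is not read there. The files name different transcripts for these probes, and the brighter one spans 682 genomic bases at the start of the gene.

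**Figure D4:**
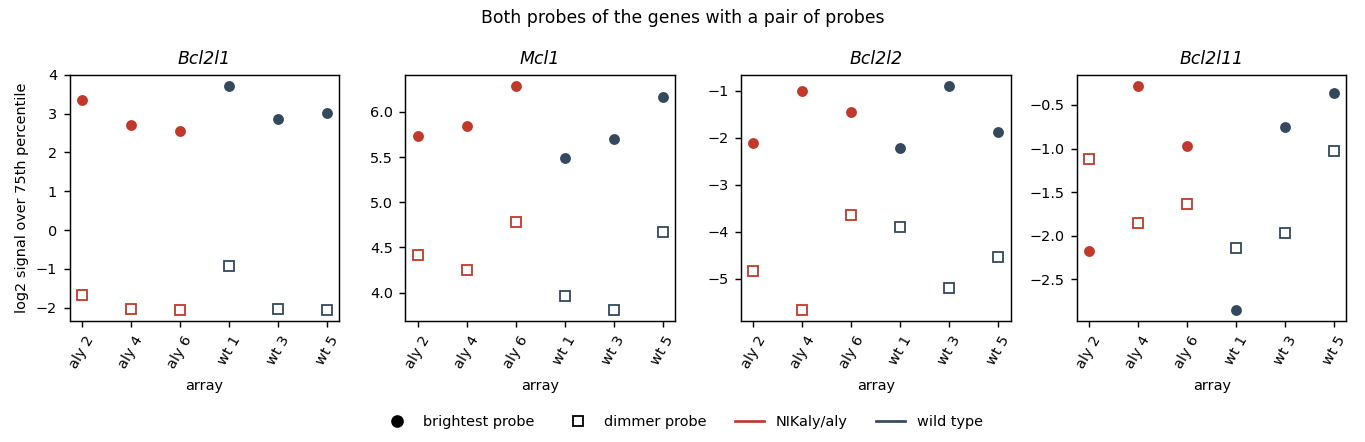
Level (log2 signal over the array's 75th percentile) of both probes of Bcl2l1, Mcl1, Bcl2l2 and Bcl2l11 on the 3 NIKaly/aly arrays (red) and the 3 wild-type arrays (dark), filled circles for the brighter and open squares for the dimmer probe. Both Mcl1 probes are highest on samples 5 and 6. The probes of Bcl2l2 and Bcl2l11 and the dimmer Bcl2l1 probe each lack a signal well above background on 2 or more of the 6 arrays.

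Genes around the family gave no call either. Of 16 other Bcl-2 family genes, 14 were on the array under these names and 9 were tested. None passed, 5 read higher and 4 lower in NIKaly/aly (median 0.16), and the smallest unadjusted p values belonged to Bcl2l14 (0.66 ± 0.36, SE), the BAX-like effector gene Bok (0.83 ± 0.53) and Bnip3 (0.38 ± 0.28), which encodes a mitochondrial protein of mitophagy. Bok read 1.90, 0.72 and 0.20 in NIKaly/aly 2, 4 and 6, against 0.95, -0.17 and -0.45 in wild type 1, 3 and 5, so it was higher in each pair while the groups overlapped. All 13 genes of the mitochondrial step and the apoptosome were tested, with 8 higher and 5 lower (median 0.054, range -0.22 to 0.18). Those named by the smallest p were Htra2, a protease of the intermembrane space (-0.22 ± 0.39), the initiator caspase gene Casp9 (0.15 ± 0.26) and Aifm1 (0.18 ± 0.35).

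Of 16 regulators of the family, among them p53, FOXO and NF-kB genes, 15 were tested, with 9 higher and 6 lower (median 0.030) and none past the threshold. Foxo3, which encodes a transcription factor known to switch on Bcl2l11 and Bbc3, read 2.36, 2.14 and 2.38 in NIKaly/aly 2, 4 and 6, against 1.80, 1.91 and 1.92 in wild type 1, 3 and 5. Its groups did not overlap, as for 2.56% of all tested probes in this direction, and the difference was 0.41 ± 0.24 (SE; limma, adjusted p = 0.99998). Mapk8, which encodes JNK1, differed by 0.61 ± 0.48 and the stress gene Ddit3 (CHOP) by 0.57 ± 0.48.

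The promoters of all 10 genes were matched by symbol in RefSeq (GRCm38.p6), which gave 17 start sites. The kappa-B consensus, the letters bound by NF-kB, was searched on both strands from 250 bases before to 50 after each start. It was found at 3 of the 17 starts (17.6%), 1 each of Bcl2l1, Bmf and Bbc3, and at 4.51% of the 32851 promoters in the table. The other starts of these 3 genes had no match. The Bmf match began at the start itself, with none before it. A match is a description of the letters and not a bound site. The 250 bases before the start are shown for Bcl2l1 (minus strand, chr2:152830718-152830967) and Bbc3 (plus strand, chr7:16309333-16309582), with the match in capitals. The first match begins at -242 from the start shown for Bcl2l1 and at -137 from that shown for Bbc3, where 2 matches overlap. As given above, neither gene passed the test between genotypes.
Bcl2l1 promoter: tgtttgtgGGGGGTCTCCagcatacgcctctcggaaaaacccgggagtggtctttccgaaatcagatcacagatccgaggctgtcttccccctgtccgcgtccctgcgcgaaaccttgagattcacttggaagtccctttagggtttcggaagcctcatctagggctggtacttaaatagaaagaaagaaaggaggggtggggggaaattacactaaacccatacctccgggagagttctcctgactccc
Bbc3 promoter: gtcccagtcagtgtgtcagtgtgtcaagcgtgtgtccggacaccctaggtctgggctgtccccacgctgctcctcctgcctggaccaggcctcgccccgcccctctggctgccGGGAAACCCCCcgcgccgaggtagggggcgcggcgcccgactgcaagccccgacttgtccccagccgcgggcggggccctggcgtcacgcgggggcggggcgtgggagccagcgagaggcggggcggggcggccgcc

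**Figure D5:**
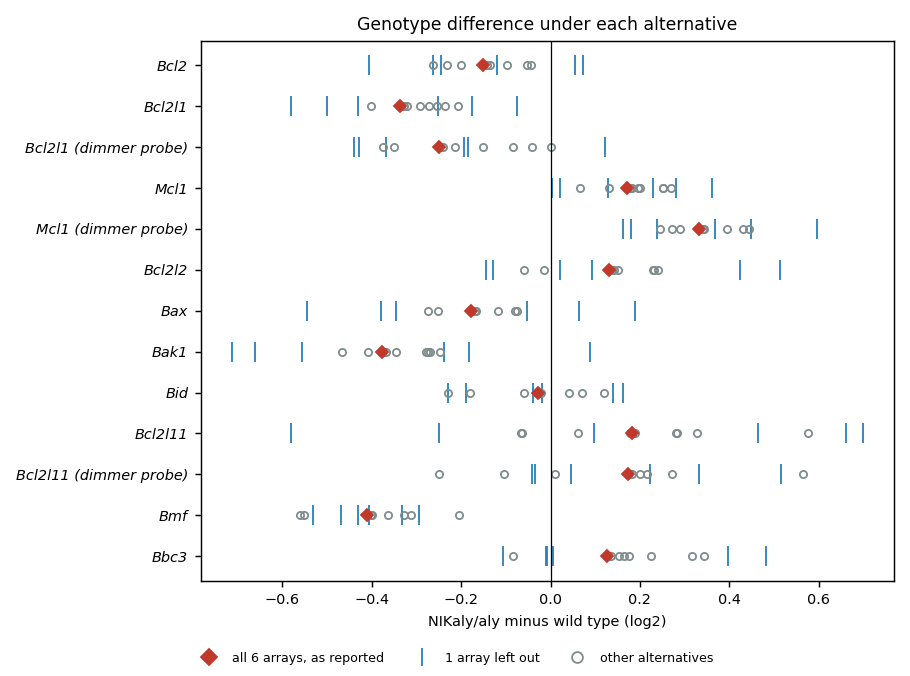
Log2 difference, NIKaly/aly minus wild type, of each tested probe with all 6 arrays (diamonds), with 1 array left out (bars) and under the other alternatives (circles). The brighter Bcl2l1 probe, both Mcl1 probes and Bmf keep their sign throughout, and the other 9 probes cross 0 at least once. For Bmf, whose groups do not overlap, leaving out 1 array could not turn the sign.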

How the data were processed

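Transcript levels were measured in LSK cells of 3 NIKaly/aly and 3 wild-type samples on 1-colour Agilent arrays. The authors' deposited intensity values came from Agilent Feature Extraction 10.7.3.1 with probe positions on mm9, per the file headers, with a processed signal per spot that is background-subtracted. Their deposited series table holds the ratio of each processed signal to its array's median, which was tested on the files. Flag columns of another kind, from the authors' scanner files, gave outliers and signal well above background.

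Here, control spots and outlier spots were left out, each array's 75th percentile (log2, non-control spots) was subtracted from the log2 processed signal, and spots of 1 probe were averaged. A gene with several probes is given by its brightest over all arrays. Of 21239 probes well above background on at least 3 of 6 arrays, 22 with a missing value were dropped, leaving 21217. The comparison used R 4.3.3 and limma 3.58.1 (lmFit, eBayes with intensity trend, two-sided, Benjamini-Hochberg, threshold 0.05), with genotype as the only term. The fit was run on simulated data, where only the size of planted differences was required to be recovered. The simulated arrays were independent and lacked the likeness of consecutive samples. All arrays share 1 slide and 1 scan. Alternatives changed the background, scaling, filter, probe summary, weights, blocks and arrays used. All members were named, with up to 3 genes of each other list by smallest p. Members and lists were chosen with earlier results of these data known.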

Additional observations from a re-analysis of the deposited data

How the results depend on the processing

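No member probe passed the threshold in any of the 20 alternatives run (limma, lowest adjusted p = 0.093, for Bcl2l1 with array column as a random block). Over all probes the count past the threshold was 0 with all 6 arrays and 1 with normexp, 5 with the authors' median-scaled table, 12 without a filter on dim probes, 2 with consecutive pairs as a block and 1876 once array column was a random block (estimated within-column correlation -0.87). Leaving out 1 array gave 0 to 1. Each array column held arrays of 1 genotype only, so column and genotype cannot be told apart. With the negative correlation of the column block, the SE of the brighter Bcl2l1 probe was 0.13, against 0.35 with genotype alone. The 1876 calls of that fit are therefore not read as genotype differences. Of the 250 values of single member probes under alternatives, 222 kept their direction and 28 turned, 17 of them on leaving out 1 array. The others were Bcl2l2 (-0.059), Bid (0.041) and the brighter Bcl2l11 probe (-0.066) with normexp, Bid with median scaling (0.070), the dimmer Bcl2l11 probe with array weights (-0.10), Bcl2l2 within slide row 1 (-0.015), Bid (0.12) and Bbc3 (-0.083) with the column block, and, without samples 1 and 2, the dimmer Bcl2l1 probe (0.0016) and the brighter (-0.064) and dimmer (-0.25) Bcl2l11 probes. The cause was not tested. Leaving out 1 array, the difference ranged from -0.41 to 0.074 for Bcl2, -0.58 to -0.076 for the brighter and -0.44 to 0.12 for the dimmer Bcl2l1 probe, 0.0037 to 0.36 and 0.16 to 0.60 for the Mcl1 probes, -0.14 to 0.51 for Bcl2l2, -0.55 to 0.19 for Bax, -0.71 to 0.088 for Bak1, -0.23 to 0.16 for Bid, -0.58 to 0.70 and -0.042 to 0.52 for the Bcl2l11 probes, -0.53 to -0.29 for Bmf and -0.11 to 0.48 for Bbc3. Median scaling moved the median difference of all probes to 0.090, so 5 of the 10 genes then read higher, against 4. Slide row as a block gave the same differences and no call, and row 2 holds 1 array of each genotype. The genotypes share no sample number, so the paired fit with consecutive samples as a replicate block rests on a pairing that the labels do not give. Low signal limits the brighter Bcl2l2 probe, both Bcl2l11 probes and the dimmer Bcl2l1 probe, each not well above background on 2 of 6 arrays. The second Bcl2l2 probe was not well above background on any.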
